A study of Mus musculus with 123 samples.

Results

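The genes described here are Fgf10, Syt9, Cyp2b23, Rbmxl2, Obsl1, Cck and Osr2, 7 of the 29022 genes in a table of transcript counts from single mouse embryos. They were chosen by their fold changes between Sox2-KO and Ctrl inner cell masses (ICMs), as some of the largest falls (Fgf10, Syt9, Cyp2b23 and Rbmxl2) or rises (Obsl1, Cck and Osr2) without Sox2, so their values in the Sox2-KO ICMs and in the control ICMs of the same line are given as a description, without a test. The question asked of them was which also responded to the loss of Oct4, the protein of the Pou5f1 gene. The answer was 5 of the 7 in late ICMs: Fgf10, Syt9, Cyp2b23 and Rbmxl2 fell and Obsl1 rose, whereas Cck and Osr2, which were high in Sox2-KO ICMs, did not pass the test in Oct4-KO ICMs. Of all tested genes, 18.1% were called in that late contrast, 8.85% lower and 9.25% higher.

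Each library was made from 1 morula or 1 ICM, and the embryos fell into 16 groups, from an Oct4 line and a Sox2 line. KO embryos were maternal-zygotic knockouts, carrying a deleted maternal allele and a paternal null allele marked by mKO2 (Oct4) or EGFP (Sox2). The paper describes finding KO embryos by that fluorescence, which it calls weak until the 8-cell stage for mKO2 and the blastocyst stage for EGFP. Genotypes in the RNA libraries were also checked there by mapping reads to the marker cassettes. Ctrl embryos came from the same matings and also had the maternal deletion, made in the oocyte by Zp3-Cre in Pou5f1 flox/flox or Sox2 flox/flox mothers, so that their only working allele was paternal. A further control group, labelled MWT (the abbreviation is not spelled out in the labels), existed for the 3 stages of the Oct4 line and for the early ICM of the Sox2 line. The strain label of all embryos was B6C3F1. Morulae were taken whole at E2.75, and ICMs were freed of trophectoderm (TE) by immunosurgery at E3.75 (early) or E4.5 (late) after culture in KSOM medium with 1 µM PD0325901, an inhibitor of the kinase MEK that holds back primitive endoderm (PE). The stage of the MWT ICMs of the Oct4 line was taken from their titles, since their source labels name a younger stage. Ctrl and KO groups held 8 embryos each, and MWT groups 5 to 8. No label says which embryos were littermates.

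Oct4 and Sox2 are transcription factors that bind DNA side by side and maintain the epiblast, the part of the ICM that forms the body of the embryo. In the absence of either factor, ICM cells lose parts of the pluripotent gene programme, and cells that lack Oct4 can turn to trophectoderm. The 7 genes are not core members of that programme. Fgf10 encodes a secreted growth factor of the FGF7 subfamily that acts on Fgfr2 and drives limb and lung budding. Syt9 encodes a synaptotagmin, a calcium sensor of vesicle release, and Cyp2b23 a cytochrome P450, an enzyme family that oxidises steroids and drugs. Rbmxl2 is an intronless relative of the splicing factor gene Rbmx, known for its role in male germ cells. Obsl1 encodes a cytoskeletal adaptor that joins Cul7 and Ccdc8 in the 3M complex, Cck the gut and brain peptide cholecystokinin, and Osr2 a zinc-finger transcription factor of the odd-skipped family, known for palate and limb joint development.

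Totals ranged from 525755 to 1344035 unique molecular identifiers (UMIs, each standing for 1 captured transcript) per embryo. Levels below are UMIs scaled to a total of 1000000 per embryo (CPM), on which 1 UMI was worth between 0.744 and 1.90. The targeted genes matched the labels. Pou5f1 had 3, 7 and 1 UMIs in all over the 8 Oct4-KO morulae, early ICMs and late ICMs, against 163, 550 and 236 in Ctrl embryos. Sox2 had 176 and 108 UMIs in the Sox2-KO early and late ICMs against 800 and 1274 in Ctrl, and its median in morulae was 1.81 CPM in KO and 12.4 in Ctrl, so that more of it remained than of Pou5f1. Intervals on ratios of summed UMIs cover counting error only, not the spread between embryos.

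The genes lie on 5 chromosomes of the mm10 build, with Syt9 and Rbmxl2 close neighbours. Rbmxl2 (chr7:107209445-107210916, plus strand, 1 exon) starts 161 kb upstream of Syt9 (chr7:107370728-107548656, plus strand, 7 exons). Cyp2b23 sits far away on the same chromosome (chr7:26665227-26686437, minus strand, 9 exons). Fgf10 is at chr13:118669791-118792115 (plus), Obsl1 at chr1:75479310-75506452 (minus), Cck at chr9:121489824-121495694 (minus) and Osr2 at chr15:35296098-35303305 (plus). No 75-base stretch of the last 600 bases of any of their GENCODE vM21 transcripts, the part that 3′-end reads sample, occurs unchanged in an annotated transcript of another gene; copies with a mismatch were not searched. Obsl1 overlaps Tmem198 and Fgf10 overlaps Gm16263 on the opposite strand, and whether reads were assigned by strand is not given in the sources used here.

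The 4 genes that fell are shown by the bases just upstream of their RefSeq start sites, because all 4 fell in late ICMs without Oct4 (RefSeq, GRCm38.p6, 5′ to 3′ on the strand of the gene, stopping where a GENCODE vM21 exon of the gene begins). Capitals mark matches, on either strand, to the octamer-type words TGCAAAT or ATGCAAA, the Sox-type words ACAAT or ACAAAG, or the TATA word TATAAA; the first pair overlap within the full octamer ATGCAAAT. The RefSeq start of Fgf10 lies inside the longer GENCODE span given above.
Fgf10, chr13:118714449-118714698: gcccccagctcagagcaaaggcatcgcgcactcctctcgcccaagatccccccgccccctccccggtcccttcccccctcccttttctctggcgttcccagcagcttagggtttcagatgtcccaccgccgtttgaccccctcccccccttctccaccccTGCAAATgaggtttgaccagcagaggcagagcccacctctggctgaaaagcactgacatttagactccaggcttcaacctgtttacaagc
Syt9, chr7:107370540-107370727: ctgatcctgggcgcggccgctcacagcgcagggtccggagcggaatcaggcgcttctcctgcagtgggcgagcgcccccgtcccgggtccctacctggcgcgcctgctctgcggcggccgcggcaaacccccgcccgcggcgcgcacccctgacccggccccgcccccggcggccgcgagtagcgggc
Cyp2b23, chr7:26686438-26686680: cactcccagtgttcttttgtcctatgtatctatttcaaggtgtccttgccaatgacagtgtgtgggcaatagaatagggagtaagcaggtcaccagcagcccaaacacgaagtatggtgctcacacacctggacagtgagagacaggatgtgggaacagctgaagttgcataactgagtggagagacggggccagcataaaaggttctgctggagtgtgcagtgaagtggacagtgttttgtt
Rbmxl2, chr7:107209195-107209444: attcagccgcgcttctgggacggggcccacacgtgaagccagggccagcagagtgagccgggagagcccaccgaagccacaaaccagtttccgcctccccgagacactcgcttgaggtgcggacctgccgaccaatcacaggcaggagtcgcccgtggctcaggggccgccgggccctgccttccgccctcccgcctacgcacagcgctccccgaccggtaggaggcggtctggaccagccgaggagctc
The words were searched in the full 250 bases before each start, which for Syt9 and Cyp2b23 include exon bases not shown. TGCAAAT, which occurs in 3.56% of 32851 RefSeq promoter windows, was found in Fgf10, 84 to 90 bases before the start, and none of the 4 held ACAAT (27.7% of windows), ACAAAG (16.5%) or TATAAA (12.4%). The full octamer ATGCAAAT (1.6% of windows) occurred in none of the 6 genes with an entry. Of the genes that were higher without Sox2, Cck held ATGCAAA (4.12% of windows) and Obsl1 held ACAAAG. The base composition of the full windows also varied: Syt9 had 80.4% G+C and 40 CG dinucleotides and Rbmxl2 had 70% and 23, against medians of 52.4% and 6 over all windows, whereas Cyp2b23 had 49.6% and 2. A word match is a description, not a binding site.

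In the ICMs of the Sox2 line, the values that chose the genes, 4 genes were lower in KO than in Ctrl, to a degree that varied with gene and stage. In late Sox2 Ctrl ICMs, Cyp2b23 ranged from 12.95 to 60.1 CPM (median 32.6), and in late KO ICMs from 0 to 1.22, with 2 UMIs in all against 216. Rbmxl2 ranged from 69.8 to 272 CPM in late Ctrl (median 103) and from 1.25 to 12.8 in late KO (median 4.21). Syt9 ranged from 17.7 to 45.1 CPM in late Ctrl and from 0 to 6.13 in late KO. For these 3 genes no late KO ICM reached the lowest Ctrl ICM. Fgf10 differed most in early ICMs, where Ctrl ranged from 16.0 to 55.6 CPM and 4 of the 8 KO ICMs had no UMI, the highest standing at 6.45. In early ICMs the groups overlapped for Cyp2b23, with 2.90 to 38.2 CPM in Ctrl and 0 to 3.25 in KO, and for Rbmxl2, with 8.56 to 147 CPM in Ctrl (median 30.6) and 2.14 to 43.9 in KO (median 7.59). In late ICMs they overlapped for Fgf10, since KO embryo 2-6 had 33.1 CPM and the lowest Ctrl 7.17. Late Ctrl ICMs whose embryo number begins with 1 ranged from 7.17 to 24.7 CPM. Those beginning with 2 ranged from 37.9 to 63.7, all above KO embryo 2-6.

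The 3 genes that were higher in Sox2-KO ICMs had low or middling levels in Ctrl. Obsl1 ranged from 3.80 to 10.9 CPM in early Ctrl and from 33.2 to 112 in early KO, and from 0 to 34.7 against 45.2 to 187 in late ICMs, without overlap at either stage. Cck ranged from 0 to 15.5 CPM in early Ctrl and from 4.75 to 112 in early KO, with overlap, and from 0 to 9.42 against 22.2 to 184 in late ICMs, without. Osr2 had the widest spread between embryos, from 16.2 to 79.5 CPM in early Ctrl against 19.4 to 398 in early KO and from 0 to 32.5 against 17.5 to 628 in late ICMs, so that the groups overlapped at both stages. All 7 genes met the criteria used throughout (edgeR, an adjusted p below 0.05 with a change of 1 or more on the log2 scale) in both Sox2-KO ICM contrasts. The choice of genes favours such calls, so they are not read as a result. Of the 14053 tested genes, 3.27% met the criteria in early and 6.95% in late ICMs. Groups stood fully apart for 1.23% and 2.30% of tested genes.

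The ranks show what the rule took. Among called genes with at least 20 CPM in the higher group, Fgf10 (log2 fold change -4.53) and Syt9 (-3.96) followed Gm11942 (-5.999) as the largest falls in early ICMs, and the next outside was Lifr (-3.42). Obsl1 (3.30) and Cck (3.26) had the largest rises there, just above Id2 (3.25). In late ICMs Cyp2b23 (-6.03) and Rbmxl2 (-4.58) fell most apart from Slc7a3 (-5.35), with Zic5 (-4.34) next, and Cck (4.46), Osr2 (4.30) and Obsl1 (3.48) rose most, with Mlxipl (3.31) next. Each gene was therefore near the top at 1 stage at least, but not always at both: Fgf10 ranked 62 among late falls, Rbmxl2 ranked 27 among early falls and Osr2 ranked 27 among early rises.

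**Figure D1:**
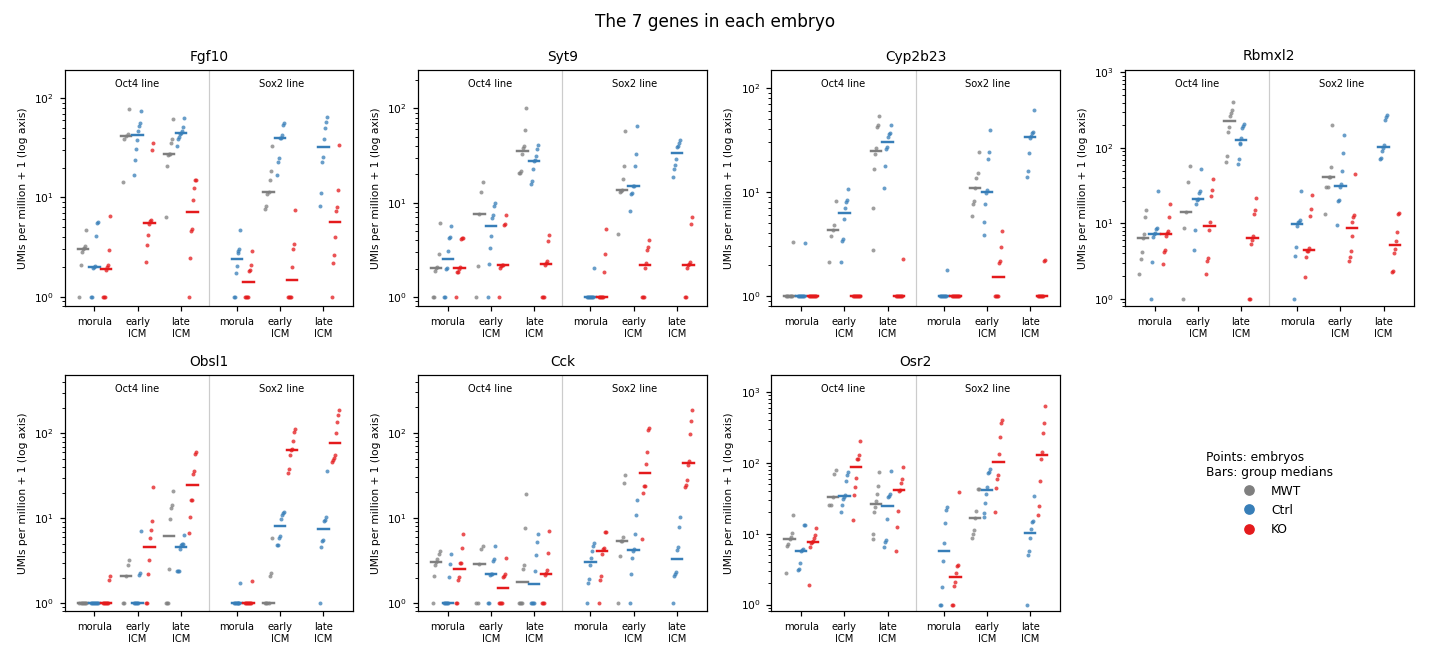
Level of each of the 7 genes in every embryo, in CPM plus 1 on a log axis, by stage for the Oct4 line (left of each panel) and the Sox2 line (right). Points are embryos, spread sideways in order of level, and bars are group medians. For Syt9, Cyp2b23 and Rbmxl2 the late KO ICMs of both lines lie below all late Ctrl ICMs of their line, and Cck has its highest medians in the Sox2-KO ICMs.

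The 4 genes that were low without Sox2 were also low in late ICMs without Oct4. Of the 7 genes, 5 passed the test in Oct4-KO against Ctrl late ICMs, 4 lower and 1 higher, where 18.1% of all tested genes were called, 8.85% lower and 9.25% higher. In none of the 5 did the KO and Ctrl embryos overlap, as was so for 5.59% of all tested genes. These libraries cannot tell fewer cells of a type from less RNA per cell.

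Cyp2b23, the P450 gene, had the largest fold change of the 7. Its levels in the 8 Oct4 Ctrl late ICMs ran from 10.0 to 42.8 CPM with a median of 29.5, whereas 7 of the 8 KO ICMs had no UMI and the other had a single UMI (1.26 CPM). Every Ctrl ICM was far above every KO ICM, and the log2 fold change was -6.47 ± 0.66 (SE, adjusted p = 7.56e-13). The summed counts, 1 against 152 UMIs, gave a ratio of 171-fold with a counting interval of 30.2 to 6787. The fitted value ran from -7.64 to -6.35 when single embryos were left out. The value of -7.64 came without KO embryo 2-2, which held the 1 UMI, and with all KO ICMs then at 0 it is no bound.

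The neighbours Syt9 and Rbmxl2 fell to a like degree. Syt9, the calcium sensor, ranged from 14.7 to 39.99 CPM in Ctrl (median 27.0) and from 0 to 3.58 in KO (median 1.22). The log2 fold change was -4.09 ± 0.54 (adjusted p = 1.47e-09). Rbmxl2, the Rbmx relative, ranged from 60.1 to 205 CPM in Ctrl (median 126) and from 0 to 20.98 in KO (median 5.42), a log2 fold change of -4.02 ± 0.54 (adjusted p = 1.90e-09). For both genes most of the transcripts were missing. Summed UMIs over the summed totals of the group were 19.4-fold lower for Syt9 (counting interval 9.56 to 45.8) and 17.97-fold lower for Rbmxl2 (13.3 to 24.9).

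Fgf10, the growth factor, also fell, with a smaller fold change. It ranged from 32.3 to 61.8 CPM in Ctrl late ICMs (median 43.7) and from 0 to 14.04 in KO (median 6.12). The groups stood apart, with a log2 fold change of -2.56 ± 0.48 (adjusted p = 9.85e-06), and 7 of the 8 KO ICMs still had at least 1 UMI.

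Obsl1, the adaptor of the 3M complex, was the only 1 of the 7 that rose. Ctrl late ICMs ranged from 1.37 to 5.45 CPM (median 3.57) and KO late ICMs from 5.80 to 60.1 (median 23.7), so that the lowest KO ICM was just above the highest Ctrl ICM. The log2 fold change was 3.31 ± 0.54 (adjusted p = 4.21e-07). In Sox2-KO late ICMs, where the range was 45.2 to 187 CPM, the median was 76.9, and the ranges of the lines overlapped. A difference between the lines was not tested, since the Sox2 embryos chose the gene.

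Cck and Osr2, among the largest rises without Sox2, did not pass the test without Oct4. Cck, the peptide hormone gene, had 10 UMIs over the 8 Ctrl and 10 over the 8 KO late ICMs, with ranges of 0 to 5.47 and 0 to 5.96 CPM. The groups lay on top of each other, and the log2 fold change was -0.07 ± 0.94 (adjusted p = 0.980), with an interval of 2 SE on either side from -1.95 to 1.82.  With so few UMIs, a smaller rise could not be told from none.

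Osr2, the odd-skipped factor, ranged from 5.47 to 76.3 CPM in Ctrl late ICMs (median 23.7) and from 4.68 to 86.1 in KO (median 39.9). The groups overlapped, and the log2 fold change was 0.63 ± 0.60 (adjusted p = 0.455), with an interval from -0.57 to 1.83. Without Ctrl embryo 1-9, which stood far above the next at 34.8 CPM, it was 1.13 ± 0.65 (adjusted p = 0.184). In the Sox2 line it was 4.30 at this stage. The late Ctrl ICMs of the lines also stood at different levels, with medians of 23.7 CPM in the Oct4 line and 9.18 in the Sox2 line. For both genes the difference in response between the lines was not tested.

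In early ICMs, 3 of the 7 genes passed the test for the loss of Oct4, against 10.9% of all tested genes (6.11% lower, 4.77% higher): Fgf10 and Cyp2b23 fell and Obsl1 rose. Fgf10 ranged from 15.8 to 72.9 CPM in Ctrl (median 41.2) and from 1.22 to 34.3 in KO (median 4.59). In 6 of the 8 KO ICMs it was below 5 CPM, and the other 2, at 29.1 and 34.3 CPM, lay within the Ctrl range. The log2 fold change was -1.88 ± 0.44 (adjusted p = 0.000665), and all 8 KO ICMs were under the Ctrl median.

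Cyp2b23 had no UMI in any of the 8 Oct4-KO early ICMs, while every Ctrl early ICM had some, from 1.15 to 9.73 CPM (median 5.31, 35 UMIs in all). With the 3 UMIs that a count of 0 allows over the group, the KO level was at least 11.9-fold lower (adjusted p = 3.74e-06). The groups did not overlap, as was so for 3.92% of all tested genes. Cyp2b23 was thus missing from the counts of the early KO ICMs, at a stage when the Ctrl level was also low.

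Obsl1 was barely present in early Ctrl ICMs, with 7 UMIs in all, and 5 of the 8 had none. In KO early ICMs it ranged from 0 to 22.5 CPM (median 3.54, 39 UMIs in all). The groups overlapped, and the log2 fold change was 2.36 ± 0.75 (adjusted p = 0.0163). Ctrl embryo 3 held 5 of the 7 Ctrl UMIs, and without it the value was 3.67 ± 0.92 (adjusted p = 0.00176). The call rested on KO embryo 5, the highest, without which the value was 1.602 ± 0.81 (log2 scale, adjusted p = 0.161), and limma on the rlog values did not call it either (adjusted p = 0.0533).

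The remaining 4 genes were not called in early ICMs. Syt9 had a median of 4.62 CPM in Ctrl and 1.18 in KO, and its log2 fold change was -0.72 ± 0.56 (adjusted p = 0.395). Rbmxl2 had medians of 19.8 and 8.23 CPM, with a log2 fold change of -0.59 ± 0.53 (adjusted p = 0.482). In both the KO ICMs spread over most of the Ctrl range. Cck was at 10 UMIs in Ctrl and 5 in KO. Osr2 had medians of 33.3 CPM in Ctrl and 85.5 in KO, and 7 of the 8 KO ICMs were above the Ctrl median. Its log2 fold change of 1.14 ± 0.53 did not pass after adjustment (adjusted p = 0.114). A fit with a replicate block, resting on 2 pairs of embryos at this stage, did call Osr2, as given with the processing alternatives.

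For 2 of the genes the response to Oct4 loss differed between the stages. For Syt9 and Rbmxl2 the log2 fold change in late ICMs minus that in early ICMs was -3.36 ± 0.84 (adjusted p = 0.00844) and -3.43 ± 0.78 (adjusted p = 0.00327), as an interaction of genotype and stage. These were the only 2 of the 7 to pass that test, against 3.11% of all tested genes (1.04% in this direction). For Fgf10 the same difference was -0.68 ± 0.66 (adjusted p = 0.646), and the interval of 2 SE ran from -2.01 to 0.64. For Obsl1 it was 0.96 ± 1.26 (adjusted p = 0.754). In the Sox2 line Syt9 stood at a log2 fold change of -3.96 in early and -3.88 in late ICMs, and Rbmxl2 at -2.02 and -4.58. The early Ctrl ICMs of the lines stood at different levels. Syt9 had medians of 4.62 CPM in the Oct4 line and 14.2 in the Sox2 line, and Rbmxl2 19.8 and 30.6. A difference in response between the lines was not tested.

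**Figure D2:**
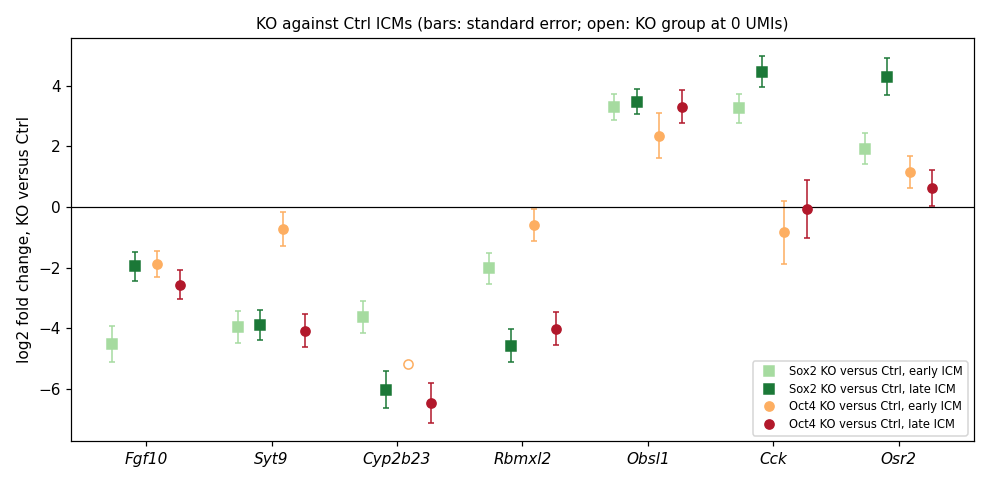
Log2 fold change of KO against Ctrl for each gene in early and late ICMs of the Sox2 line (squares, the contrasts that chose the genes) and the Oct4 line (circles), with the standard error as bars and an open circle where the KO group had 0 UMIs. In late ICMs of the Oct4 line the circles stand at -2.56 for Fgf10, -4.09 for Syt9, -6.47 for Cyp2b23, -4.02 for Rbmxl2, 3.31 for Obsl1, -0.070 for Cck and 0.63 for Osr2; differences between the lines were not tested.

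The level of Sox2 itself moved with the stage in Oct4-KO ICMs. Sox2 had medians of 132 CPM in Ctrl and 135 in KO early ICMs, a log2 fold change of 0.31 ± 0.27 (adjusted p = 0.446), and of 324 and 83.9 CPM in late ICMs, where it fell by 1.62 on the log2 scale (SE 0.27, adjusted p = 1.03e-06). Its part in the late falls of Syt9 and Rbmxl2 was not tested. In the other direction Pou5f1 was not called without Sox2: its log2 fold change in Sox2-KO ICMs was -0.08 ± 0.20 in early and 0.07 ± 0.19 in late ICMs.

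In morulae none of the 7 genes was called for the loss of either factor, by edgeR or by DESeq2. The background was low there, with 0.804% of tested genes called in the Oct4 line and 0.00712%, which is Sox2 alone, in the Sox2 line (618 genes had an unadjusted p under 0.05). None passed for a KO effect that differed between morula and early ICM of the Oct4 line either, where 3.29% of tested genes did. The counts limit what could be seen: over the 8 Ctrl morulae of the Oct4 line Cyp2b23 had 2 UMIs, Obsl1 none, Cck 6, and Fgf10 and Syt9 15 each. Rbmxl2 and Osr2 were better counted. Rbmxl2 had a median of 6.27 CPM in Ctrl and 6.19 in KO morulae of the Oct4 line, and Osr2 4.79 and 6.72. In the Sox2 line KO morula 6 stood out for Osr2 with 37.6 CPM, where the next of its group had 2.595.

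The course of the genes through the stages was read in the Oct4 Ctrl embryos, which had no part in choosing them. The genes that fell without Sox2 had to be present in Sox2 Ctrl ICMs, so rises towards Ctrl ICMs partly follow from the choice. Morulae were whole and without inhibitor, whereas ICMs were cultured with it and freed of TE, so stage cannot be told apart from these treatments between morula and ICM. From morula to early ICM, 4 of the 7 rose, against 29.0% of all tested genes called in either direction and 14.1% higher. Fgf10 went from a median of 0.995 to 41.2 CPM, a log2 rise of 4.24 ± 0.55 (adjusted p = 2.76e-10). Osr2 rose by 2.73 ± 0.70 (adjusted p = 0.000702) and Cyp2b23 by 3.65 ± 0.71 (adjusted p = 1.22e-05). The rise of Rbmxl2, 1.33 ± 0.57, was nearest to the threshold (adjusted p = 0.0444), and DESeq2 did not call it (adjusted p = 0.0549). The lowest early ICM was above the highest morula for Fgf10 and Osr2, as was so for 9.28% of tested genes in this direction.

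From early to late ICM, Syt9 rose in Oct4 Ctrl embryos, and Cyp2b23 and Rbmxl2 rose again, 3 of the 7, against 15.6% of all tested genes called and 9.52% higher. Syt9 went from a median of 4.62 to 27.0 CPM (log2 rise 2.56 ± 0.44, adjusted p = 1.62e-06). Cyp2b23 went from 5.31 to 29.5 CPM (2.48 ± 0.41, adjusted p = 9.69e-07), and Rbmxl2 from 19.8 to 126 CPM (2.71 ± 0.46, adjusted p = 1.34e-06). In each of the 3 the lowest late ICM was above the highest early ICM, as was so for 2.72% of tested genes in this direction. Fgf10 did not pass the test between these stages, at medians of 41.2 and 43.7 CPM (log2 change 0.17 ± 0.39, adjusted p = 0.793).

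In Oct4-KO embryos neither Syt9, Cyp2b23 nor Rbmxl2 passed the test for a rise from early to late ICM; their log2 changes were -0.81 ± 0.70, 1.18 ± 0.97 (0 against 1 UMI) and -0.72 ± 0.64. Fgf10 still rose from morula to early ICM by 2.87 ± 0.67 (adjusted p = 0.000239), and Osr2 by 3.599 ± 0.65 (adjusted p = 2.33e-06). Obsl1 rose at both steps, by 3.84 ± 0.91 from morula to early ICM (adjusted p = 0.000292) and by 2.43 ± 0.46 from early to late ICM (adjusted p = 1.12e-05). In Ctrl embryos its changes were 3.01 ± 1.38 (adjusted p = 0.0639) and 1.47 ± 0.88 (adjusted p = 0.201), and DESeq2 called the first. That first change starts from 0 UMIs in the Ctrl morulae, and with 3 UMIs allowed there the rise was at least 2.70-fold. The difference in KO effect did not pass the test, at 0.83 ± 1.51 between morula and early ICM (adjusted p = 0.842) and 0.96 ± 1.26 between early and late ICM (adjusted p = 0.754). The value of 0.83 also rests on the Ctrl morulae at 0 UMIs. Background calls in the KO embryos were 26.3% from morula to early ICM (12.7% higher) and 16.0% from early to late ICM (9.76% higher).

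**Figure D3:**
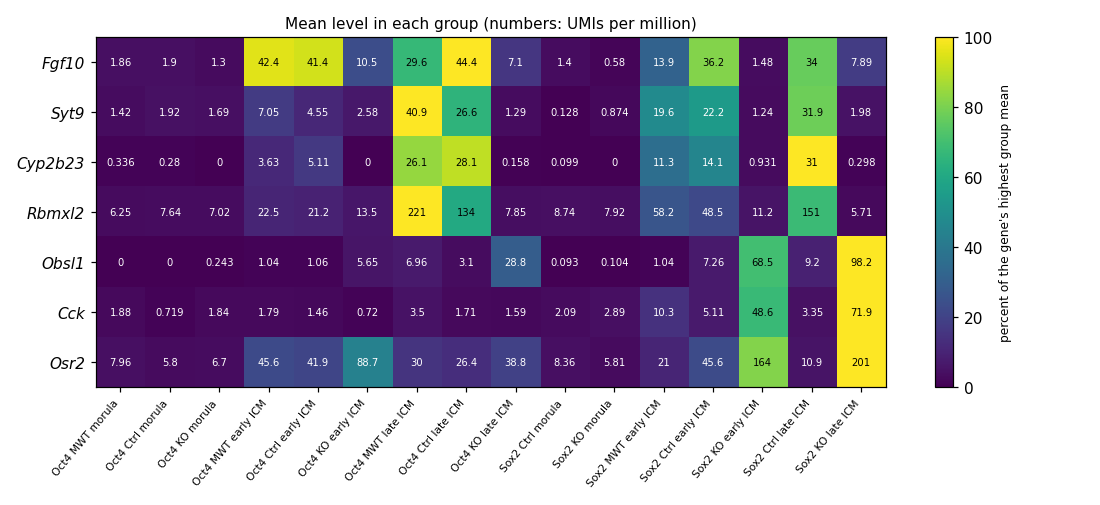
Mean level of each gene in the 16 groups, as numbers in CPM, coloured as a percentage of the highest group mean of that gene. Syt9, Cyp2b23 and Rbmxl2 are brightest in late MWT and Ctrl ICMs, Fgf10 in early and late Ctrl ICMs of both lines and early MWT ICMs of the Oct4 line, and Obsl1, Cck and Osr2 in the Sox2-KO ICMs.

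The MWT embryos of the Oct4 line gave no call for any of the 7 genes against Ctrl at any stage, by edgeR or DESeq2, against 0.0646%, 0.373% and 0.797% of tested genes in morulae, early and late ICMs. The early share stands for 52 genes, and it was 31, 29, 30 and 23 genes without MWT embryo 1, 3, 8 or 9 and 71 without embryo 7, with 0 of the 7 genes called each time; Ctrl embryos were not left out in this comparison. In late ICMs, Rbmxl2 ranged from 63.2 to 403 CPM in MWT (median 229) and from 60.1 to 205 in Ctrl (median 126), a log2 difference of -0.64 ± 0.42 for Ctrl against MWT. Cyp2b23 had medians of 24.0 and 29.5 CPM, with a difference of 0.19 ± 0.37. The Oct4-KO late ICMs lay below the lowest MWT ICM for Syt9 and Rbmxl2, as they did for Ctrl: their highest values were 3.58 and 20.98 CPM, and the lowest MWT values 19.5 and 63.2. The share of all tested genes that stood apart between KO and MWT was not computed. Between KO and Ctrl late ICMs it was 5.59%. For Cyp2b23 the highest KO ICM and the lowest MWT ICM had 1 UMI each. For the other called genes the KO and MWT late ICMs overlapped, since Fgf10 ranged from 5.34 to 60.4 CPM in MWT and Obsl1 from 0 to 19.9.

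In the early ICMs of the Sox2 line, MWT and Ctrl embryos were less alike, and the values are given without a test because the Ctrl embryos chose the genes. Obsl1 had 6 UMIs over 7 MWT ICMs, 4 of them with none, and 53 over 8 Ctrl ICMs, all with some. Fgf10 had a median of 10.3 CPM in MWT and 38.9 in Ctrl, and Osr2 15.9 and 39.97. Cck had 4.396 and 3.21 CPM, and Rbmxl2 40.1 and 30.6. The fall of Fgf10 in early Sox2-KO ICMs was smaller when read against MWT, whose lowest ICM had 6.59 CPM, just above the highest KO ICM at 6.45. The PE marker sum was apart between these groups too, at 975 to 1429 CPM in MWT and 214 to 884 in Ctrl, while the TE sum (189 to 971 against 83.0 to 422) and the epiblast sum (1464 to 2420 against 1685 to 3683) overlapped; the part of PE cells in these differences was not tested.

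Markers of the cell types an ICM library can hold moved with these changes. All 8 epiblast markers fell and all 8 TE markers rose in Oct4-KO late ICMs. Their summed levels did not overlap: the epiblast sum ranged from 481 to 1176 CPM in KO and from 2396 to 4113 in Ctrl, and the TE sum from 1173 to 2980 in KO and from 104 to 945 in Ctrl. Of the 6 PE markers that could be tested, 2 rose and 3 fell, and the sum ranged from 810 to 1593 CPM in KO and from 241 to 1141 in Ctrl. In Oct4-KO early ICMs 6 epiblast markers fell, 2 TE markers rose and 1 fell, and of 6 tested PE markers 1 rose and 2 fell. There the epiblast sum ranged from 1433 to 1971 CPM in KO against 2243 to 3814 in Ctrl, without overlap, the TE sum from 433 to 1237 against 121 to 1198, and the PE sum from 779 to 1256 against 546 to 907. In the Sox2 line 4 epiblast markers were called lower at each ICM stage, 4 TE markers higher in early and 3 in late ICMs, and 1 of the 6 tested PE markers higher, in early ICMs. In Sox2-KO early ICMs the TE sum ranged from 444 to 1859 CPM against 83.0 to 422 in Ctrl, without overlap, the epiblast sum from 1559 to 2036 against 1685 to 3683 and the PE sum from 552 to 893 against 214 to 884. In Sox2-KO late ICMs the epiblast sum ranged from 1500 to 2341 CPM against 2712 to 4385 in Ctrl, without overlap, the TE sum from 519 to 1710 against 131 to 2758 and the PE sum from 543 to 1043 against 371 to 1362. No TE or epiblast marker was at 0 in any ICM group, while the PE marker Foxa2 was at 0 in all early ICM groups and in the late MWT group of the Oct4 line, and Sox7 in the Oct4-KO early ICMs. The part of these cell types in the changes of the 7 genes was not tested.

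**Figure D4:**
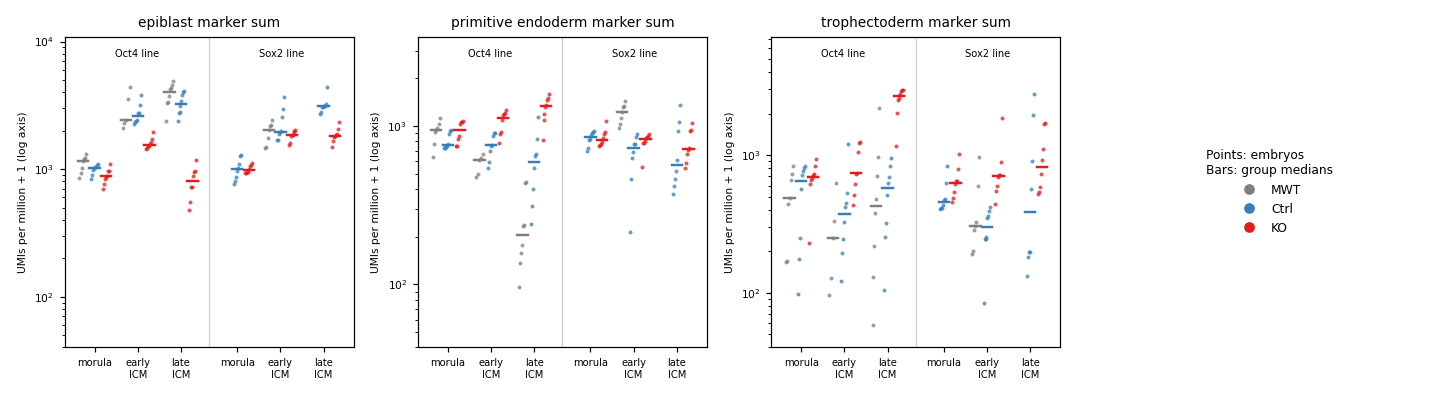
Summed level of 8 epiblast, 8 PE and 8 TE marker genes in every embryo, in CPM plus 1 on a log axis, laid out as in the plot of the 7 genes, with bars at group medians. Oct4-KO late ICMs have the lowest epiblast and the highest TE sums of the late Ctrl and KO groups by median.

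Around Rbmxl2 and Syt9 the called neighbours did not all change in the same direction (the genes of this paragraph were picked after their values had been seen). In Oct4-KO late ICMs, 3 of 4 tested genes starting within 250 kb of Syt9 and 2 of 4 around Rbmxl2 were called. Each count includes the other gene of the pair, and 18.1% of all tested genes were called. The uncalled Nlrp14 (1 UMI in KO, 0 in Ctrl) and Olfr714 (5 and 6) had too few UMIs to show a change. Platr28, a noncoding gene in the gap between the pair, had 10 UMIs in Ctrl and 1 in Oct4-KO late ICMs (log2 fold change -2.62 ± 0.96, adjusted p = 0.0269), but 5 and 6 in Ctrl and KO late ICMs of the Sox2 line. Ppfibp2, which starts 224479 bp beyond the start of Syt9, rose in Oct4-KO late ICMs by 1.55 ± 0.24 (adjusted p = 7.40e-08), with 558 UMIs against 178, and stood higher by 1.45 ± 0.23 in Sox2-KO late ICMs. Tmem198, on the strand opposite to Obsl1 and overlapping it, had 0 UMIs in Oct4-KO late ICMs and 38 in Ctrl, and 12 against 74 in the late ICMs of the Sox2 line, the direction opposite to that of Obsl1. Of 8 tested genes starting within 250 kb of Obsl1, 2 were called in Oct4-KO late ICMs, Tmem198 and Chpf. Chpf also fell, with 26 UMIs against 166 (log2 fold change -2.73 ± 0.44, adjusted p = 4.06e-07).

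Relatives and partners of the 7 genes, taken from lists made by known role, are given beside the 18.1% of all tested genes called in Oct4-KO late ICMs. Each list held only 2 to 5 tested genes, so nothing is read from the counts. Of the other FGF7-subfamily ligands and the FGF receptors, 5 of 7 could be tested: in Oct4-KO late ICMs the Fgf10 receptor gene Fgfr2 rose from 59.1 to 139 CPM on average (log2 1.34 ± 0.25, adjusted p = 7.78e-06) and Fgfr4 rose from 1.91 to 7.78 (1.94 ± 0.58, adjusted p = 0.00551), the direction opposite to Fgf10. In early Sox2-KO ICMs Fgfr2 was at 131 CPM on average against 52.7, while Fgf3 was lower at both ICM stages (0.582 against 4.27 CPM and 2.09 against 9.08). Of 16 other synaptotagmins only 4 were tested, and 1, Syt2, was called in Oct4-KO late ICMs, at 2.99 against 0.172 CPM on average.

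Of 8 Cyp2b enzymes and their reductase and regulators, 2 were tested, and the nuclear receptor gene Rxra rose in Oct4-KO late ICMs (1.63 ± 0.28, adjusted p = 2.24e-06). Of 5 Rbmx relatives and splicing partners, all tested, Rbmx rose there from 13.2 to 25.1 CPM on average (1.04 ± 0.40, adjusted p = 0.0345), and was also higher in Sox2-KO late ICMs, at 31.0 against 10.5 CPM. In Oct4-KO late ICMs its intronless relative Rbmxl2 fell, as given above. Of 6 partners and relatives of Obsl1, 4 were tested and none was called in any ICM contrast. Among 11 receptors and processing enzymes of Cck, 4 were tested: the carboxypeptidase gene Cpe fell in Oct4-KO ICMs, in late ICMs from 21.2 to 0.353 CPM on average (adjusted p = 3.01e-09), and the protease gene Ctsl, which was also higher in Sox2-KO ICMs, rose at both stages, by 1.46 ± 0.19 in Oct4-KO late ICMs (adjusted p = 9.36e-10). Of 7 genes known beside odd-skipped factors, 2 were tested, and Eya1 had 7.29 CPM on average in Ctrl and none in KO late ICMs of the Oct4 line (adjusted p = 1.35e-05).

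Across the 16 group means, on the log2(CPM + 1) scale, Syt9, Cyp2b23 and Rbmxl2 had the highest likeness among the 7. Pearson's r was 0.97 between Syt9 and Cyp2b23 and 0.96 between Rbmxl2 and either of them, and from 0.76 to 0.85 between Fgf10 and these 3. Obsl1 had r of 0.74 with both Cck and Osr2, and Cck and Osr2 had 0.52. The groups share line, stage and genotype and include the Sox2-line ICMs that chose the genes as joint falls or rises, so the values describe likeness only. Among 7552 other genes with a group mean of at least 20 CPM, Fgd1, an activator of the GTPase Cdc42, was among the 3 most like each of Syt9, Cyp2b23 and Rbmxl2 (r from 0.93 to 0.96). The amino acid transporter genes Slc7a3 (0.95 with Rbmxl2) and Slc1a4 (0.96 with Cyp2b23) and the cytokine receptor gene Il6st (0.96 with Cyp2b23) were also among the 3 most like these genes. Obsl1 was most like Idh3a (0.95), Cck most like Crym (0.89), Osr2 most like Tm6sf1 (0.95) and Fgf10 most like Amacr (0.93).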

How the data were processed

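Single embryos had been sequenced with a 3′-end protocol carrying unique molecular identifiers. Per the labels and methods, UMI-tools served the authors to extract the identifiers. Reads were trimmed with Cutadapt, aligned to mm10 with TopHat2 and counted per gene with featureCounts against GENCODE, and TRUmiCount gave the estimate of unique transcripts. The deposited table holds these UMI counts per gene, not normalized. A second deposited table holds log2-scale rlog values that the authors made with DESeq2; it was used only as an alternative. Capture losses lower all counts, so a gene at 0 may still have been expressed.

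Counts were fitted with edgeR 4.0.16 (R 4.3.3) by the quasi-likelihood test with TMM scaling, in 1 model of the 12 Ctrl and KO groups (96 embryos, 14053 genes with a UMI in a share of 0.5 or more of the embryos at 1 stage), and in a model of all 16 groups (123 embryos, 13923 genes) for MWT. A gene was called at a Benjamini-Hochberg adjusted p under 0.05 over all tested genes with a change of 1 or more on the log2 scale, up or down. All 7 genes passed the filter. Standard errors were the log2 fold change divided by the root of F, and intervals span 2 SE on either side. Ratios of summed UMIs, each over the summed totals of its group, carry exact 95% counting intervals, and a count of 0 was set to 3 UMIs over the group. Since litters and cultures are not given, p-values measure the spread between embryos.

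The 7 genes and all gene lists were chosen with earlier results of these data known. The named genes were the 7, the list members that were called, the 3 genes most like each by Pearson's r over group means (at least 20 CPM in a group), and the genes next to them in rank. Library totals alone, DESeq2 1.42.0 (its size factors and its Wald test), no filter, no fold minimum, limma 3.58.1 on the rlog values, all embryos in 1 fit, the replicate block, the label set of late ICMs and leaving out single embryos were tried as alternatives. The fit was tested on simulated data. Spike-in counts were not used here.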

Additional observations from a re-analysis of the deposited data

Results flagged for a closer look

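Results of 2 kinds stood out. The first was the pair of genes whose response to Oct4 loss differed between the ICM stages by the interaction test: the KO effect in late minus early ICMs was -3.36 (log2) for Syt9 and -3.43 for Rbmxl2.

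The other was a single embryo far above the rest of its group, by the gap to the next embryo as a share of the group's range. Of 59 sets of a gene and a group with at least 40 UMIs, 13 stood out. Chance gives about 1 in 20 only for independent, normally distributed values. These are CPM on a linear scale, all 13 embryos were the highest of their group, and some embryos recur across genes, so the count is not read against that rate. Embryo 10 of the Sox2 MWT early ICMs was the highest for Fgf10 (32.2 CPM against 17.3 for the next, gap share 0.5813), Syt9 (56.6 against 23.2, 0.6313) and Rbmxl2 (201 against 55.0, 0.7738). Embryo 2-1 of the Sox2 Ctrl late ICMs was the highest for Obsl1 (34.7 against 9.46, 0.7271) and Osr2 (32.5 against 13.98, 0.5698).

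For Rbmxl2 the others were Oct4 Ctrl morula 19 (25.5 against 7.76 CPM, gap share 0.6956), Oct4 Ctrl early ICM 8 (52.2 against 26.1, 0.5356), Sox2 Ctrl morula 5 (26.0 against 10.3, 0.6044) and Sox2 KO early ICM 8 (43.9 against 11.8, 0.7683). Osr2 had Sox2 KO morula 6 (37.6 against 2.595, 0.931) and Oct4 Ctrl late ICM 1-9 (76.3 against 34.8, 0.586). Fgf10 had Sox2 KO late ICM 2-6 (33.1 against 11.01, 0.6674), and Syt9 had Sox2 Ctrl early ICM 10 (64.0 against 32.0, 0.5637).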

How the results depend on the processing

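The calls of the 7 genes for Oct4 loss in early and late ICMs were the same with library totals, DESeq2 size factors, the DESeq2 Wald test, no filter, no fold minimum and MWT embryos added to the fit. A term for the label set of late ICMs (the first digit of the embryo number) also left 5 genes called. On the rlog values Obsl1 in early ICMs was not called (0.75, adjusted p = 0.0533), and for the rise from morula to early ICM in Oct4 Ctrl, DESeq2 did not call Rbmxl2 (1.36) and called Obsl1 (2.36). Leaving out single embryos gave 2 to 3 of the 7 called in early ICMs and 5 in late ICMs; Obsl1 in early ICMs lost its call without KO embryo 5 (1.602, adjusted p = 0.161). Cck in late ICMs ranged from -0.78 to 0.40 and changed sign without Ctrl embryo 1-3 (0.40), 1-6 (0.21) or 1-9 (0.026) or KO embryo 1-2 (0.058), 1-5 (0.076) or 2-2 (0.12), and was called in none of these fits.

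Counts over all genes moved more. With no fold minimum, Oct4-KO calls were 206 in morulae, 2950 in early and 4450 in late ICMs (113, 1529 and 2544 with it), stage calls were 6748 and 4560 in Ctrl and 6338 and 4564 in KO embryos, and Ctrl against MWT calls were 89 in early and 220 in late ICMs. In morulae Ctrl against MWT gave 15 calls with no filter and 15 with DESeq2, against 9. On the rlog values Oct4-KO calls were 55, 610 and 1236. Leaving out single embryos gave 85 to 128, 1415 to 1562 and 2385 to 2542 Oct4-KO calls, and leaving out each of the 5 MWT embryos gave 23 to 71 for Ctrl against MWT early ICMs.

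Deviations of same-numbered Ctrl and KO embryos correlated at r from -0.06 to 0.13 in Oct4 morulae, -0.05 to 0.098 in Oct4 early ICMs, 0.11 in the single pair of Oct4 late ICMs, -0.08 to 0.17 in Sox2 early ICMs and -0.03 to 0.23 in Sox2 late ICMs. An embryo correlated best with its own number in 0 of 3, 1 of 2, 1 of 1, 1 of 4 and 3 of 4 pairs. Since not every pair was over 0.1 in any set of 3 or more, the numbers were not used as a pairing. A replicate block could use only 3, 2 and 1 pairs of the 3 Oct4 stages, with the lone late pair assumed to vary like the other pairs of the fit. With the replicate block, 444 genes were called in early and 490 in late ICMs, with 1 of the 7 in early (Osr2, 1.72) and 2 in late ICMs (Cyp2b23 and Rbmxl2). The same embryos with no replicate block gave 51, 264 and 155 genes in the 3 stages and 0 of the 7 in both ICM stages. Calls were thus lost in this subset without the block too. Whether the number or the choice of embryos mattered was not tested. Values that changed sign there were Syt9 (0.14 with and 0.052 without the block) and Rbmxl2 (0.53 and 0.54) in early ICMs and Osr2 (-1.63 in both) in late ICMs. Sox2 morulae share no numbers, so no block was run there.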
